A study of Mus musculus with 18 samples.

Results

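The sites described here are the 1014 positions at which histone H3.3 was listed by the study's authors as different between acutely stressed mice and controls, out of 2300 sites in the 2 deposited comparisons of the series. Every position of the acute comparison was taken, and a site was called higher or lower by whether the mean of the acute stress libraries lay above or below that of the control libraries. The measurement was crosslinking chromatin immunoprecipitation with sequencing (ChIP-seq) of H3.3 in the nucleus accumbens of C57Bl/6J mice, with genomic positions in build mm10. Acute stress meant 5 min of aggression by another mouse, after which the animals were housed beside it for 55 min. Control mice were taken straight from the home cage, so acute stress was a single encounter with no chronic defeat before it, per the group titles. Both groups were killed at day 28, counted from the last defeat of the chronically stressed mice that make up the other comparison. The labels give neither sex nor age. Each condition had 3 ChIP and 3 Input libraries, and each library pooled the bilateral accumbens of 5 animals, so spread between single animals cannot be seen.

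The histone variant H3.3 is laid down throughout the cell cycle by the HIRA complex and by DAXX with ATRX. In neurons, which no longer divide, it replaces the replication-coupled H3 over time and turns over at genes, enhancers and repeats. The nucleus accumbens is a ventral striatal part of the reward circuit, built mostly of GABAergic medium spiny neurons with some interneurons and glia, and social defeat is used to study how stress acts on it. The comparison asks where H3.3 occupancy stood apart shortly after a single stress. A site's value is normalised read coverage of a stretch of chromatin. It is not expression, and fewer cells that carry H3.3 at a position cannot be told apart from less H3.3 per cell.

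Most sites lay far from a gene start, so sequence is shown only for those that covered an annotated promoter. Of the sites searched, 6 overlapped a RefSeq promoter window (build GRCm38.p6, 250 bases before to 50 bases after a start), and the 4 below are those with over 133 bases of overlap. Each line runs 5′ to 3′ on the gene's strand, and capitals mark the bases inside the H3.3 site. Both lower sites come first. Copa encodes the alpha subunit of the COPI vesicle coat, and its window lies on the plus strand at chr1:172082279-172082578. Nomo1 encodes a membrane protein of the endoplasmic reticulum, and its window lies on the plus strand at chr7:46033446-46033745. The higher sites follow. Olfr902 encodes an odorant receptor (plus strand, chr9:38448542-38448841). Zdhhc22 encodes a palmitoyltransferase (minus strand, chr12:86990781-86991080), and this window belongs to a RefSeq start other than the one in the authors' annotation, which lies 2374 bp downstream of the site.
Copa: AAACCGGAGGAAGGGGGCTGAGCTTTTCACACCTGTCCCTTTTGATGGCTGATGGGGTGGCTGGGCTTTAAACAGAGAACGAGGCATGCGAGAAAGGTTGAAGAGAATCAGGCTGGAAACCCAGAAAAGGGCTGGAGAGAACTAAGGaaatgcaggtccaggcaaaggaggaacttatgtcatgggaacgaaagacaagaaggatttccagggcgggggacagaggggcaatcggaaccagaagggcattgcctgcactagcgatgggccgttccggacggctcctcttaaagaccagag
Nomo1: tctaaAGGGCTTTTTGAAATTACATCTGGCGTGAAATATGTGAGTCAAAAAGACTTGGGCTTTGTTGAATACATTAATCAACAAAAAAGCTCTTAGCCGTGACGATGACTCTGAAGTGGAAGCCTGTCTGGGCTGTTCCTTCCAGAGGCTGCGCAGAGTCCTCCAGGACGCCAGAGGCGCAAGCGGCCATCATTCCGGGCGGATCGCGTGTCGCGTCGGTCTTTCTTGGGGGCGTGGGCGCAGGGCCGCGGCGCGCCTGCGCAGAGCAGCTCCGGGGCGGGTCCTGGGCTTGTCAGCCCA
Olfr902: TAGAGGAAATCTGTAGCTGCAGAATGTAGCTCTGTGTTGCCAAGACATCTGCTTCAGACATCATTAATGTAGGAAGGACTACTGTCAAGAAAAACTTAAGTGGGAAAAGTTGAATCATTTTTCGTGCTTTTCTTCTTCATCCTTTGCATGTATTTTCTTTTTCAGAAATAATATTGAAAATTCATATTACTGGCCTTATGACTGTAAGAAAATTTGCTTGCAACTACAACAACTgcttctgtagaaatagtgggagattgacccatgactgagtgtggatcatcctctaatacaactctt
Zdhhc22: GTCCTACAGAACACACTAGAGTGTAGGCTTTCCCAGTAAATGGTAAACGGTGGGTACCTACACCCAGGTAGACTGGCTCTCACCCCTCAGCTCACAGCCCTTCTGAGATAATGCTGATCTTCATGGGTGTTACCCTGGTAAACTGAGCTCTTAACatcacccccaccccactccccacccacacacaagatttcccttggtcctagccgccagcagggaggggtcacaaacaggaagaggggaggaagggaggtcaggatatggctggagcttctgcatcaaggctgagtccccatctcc

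The windows differed in composition. Copa's was 54.0% G and C with 10 CpG dinucleotides, and Nomo1's 57.7% with 23 CpG. Olfr902's was 36.0% with 1 CpG, and Zdhhc22's 54.7% with 2 CpG. Over all 32851 RefSeq windows the medians were 52.7% and 7 CpG. The letters TGANTCA, with any base at N, are a loose form of the AP-1 site TGAGTCA or TGACTCA that Fos and Jun proteins bind. Searched on both strands, they stood in 2 of the 6 windows, against 7.81% of all windows. Nomo1's match was TGAGTCA, and Olfr902's was TGAATCA, which is outside the stricter form. The stricter form was not counted over all windows. The CRE letters TGACGTCA, bound by CREB, stood in 0 of 6 and in 1.79% of all windows. The full palindromic glucocorticoid response element stood in 0 of 6 and in 3 of all 32851 windows. A match only says that the letters are there.

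At the 4 printed windows the libraries of the groups stood apart. The Copa site (chr1:172082151-172082425) had 4.75 and 1.43 normalised counts after acute stress and 19.47 and 15.11 in controls. At Nomo1 (chr7:46033451-46033800) the acute stress libraries had 4.75 and 2.86 normalised counts and the control libraries 18.39 and 15.77. Both control libraries lay above both acute stress libraries at each site, and pooled control reads exceeded acute stress reads 4.89-fold at Copa (exact 95% counting interval 2.07 to 14.1) and 4.19-fold at Nomo1 (1.86 to 11.1). At Olfr902 (chr9:38448451-38448775) the acute stress libraries had 13.31 and 15.72 normalised counts, against 5.41 and 1.97 in controls. Zdhhc22 (chr12:86990926-86991175) had 10.46 and 12.86 after acute stress and 2.16 and 1.97 in controls. Here both acute stress libraries were the high ones, with pooled folds of 4.37 (1.91 to 11.2) and 5.59 (2.03 to 19.1). All counting intervals given here cover counting error only.

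Over the whole list, 541 sites (53.4%) were higher after acute stress and 473 (46.6%) were lower. Higher sites had a median of the group means of 15 normalised counts after acute stress (range 10.95 to 25.94) and 3.27 in controls (0.87 to 8.29). At lower sites the median was 2.38 after acute stress (0.475 to 13.1) and 14.4 in controls (11.865 to 42.75). The groups' libraries did not overlap at any of the 1014 sites, which follows from how the list was made and is no separate evidence. In reads without normalisation they did not overlap at 539 of the 541 higher sites and at all 473 lower sites. On the log2 scale the median difference of group means was 2.2 at higher sites (interquartile range 1.95 to 2.51) and -2.64 at lower sites (-2.96 to -2.31). The largest single difference was 3.73 upward and -4.68 downward.

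**Figure D1:**
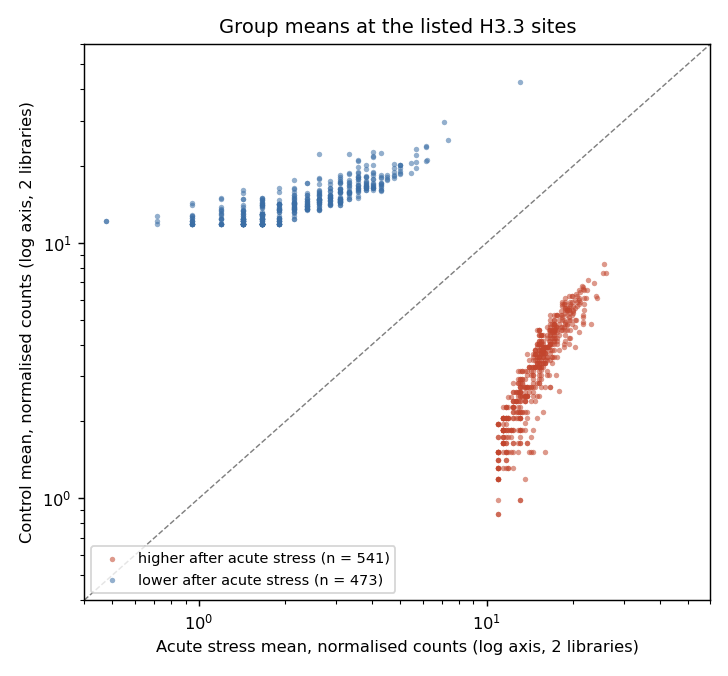
Mean normalised counts of the 2 acute stress libraries (horizontal) against the 2 control libraries (vertical) at each listed site, both axes logarithmic, with the line of equal means dashed. The 541 higher sites start at an acute stress mean of 10.95 and the 473 lower sites at a control mean of 11.865, and the highest point, at 42.75 in controls, is in Btaf1.

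The sites were short and thinly covered. Higher sites had a median of 34 reads over the 4 libraries (21 to 67) and lower sites 39 (30 to 126). Median length was 300 bp (250 to 500) at higher sites and 275 bp (250 to 650) at lower sites, and the shortest possible length, 250 bp, was that of 25.9% of higher and 37.0% of lower sites. Each read counted for 0.951 and 1.43 normalised counts after acute stress and for 1.08 and 0.657 in controls, so the second acute stress library was the shallowest and the second control library the deepest. Within the list the acute stress libraries held 9673 and 6768 reads and the control libraries 8272 and 13403.

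A floor in the group with more H3.3 was visible in both directions. No higher site had under 10.46 normalised counts (11 reads) in the first acute stress library or under 11.44 (8 reads) in the second, and 79 and 100 sites sat on those values. No lower site had under 11.9 (11 reads) in the first control library or under 11.83 (18 reads) in the second, and 111 and 108 sites sat there. The commonest combination, at 24 lower sites, was 1.9 and 1.43 normalised counts after acute stress and 11.9 and 11.83 in controls. Many sites therefore share the same values, and 688 distinct p-values stand in the authors' deposited table for the 1014 sites. Replicate libraries differed by a median of 1.94 normalised counts between acute stress libraries and 1.55 between control libraries at higher sites, and by 1.90 and 1.29 at lower sites. In the low group this is large for its level: at lower sites the median acute stress mean was 2.38. The sites were listed on these same counts, so the spread does not show how well replicates match elsewhere.

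The counting test grades the listed sites by their reads, given the libraries' depths. The authors' p chose these sites on the same counts, so it describes the list and is no separate evidence of a difference. A two-sided exact binomial test at 0.0001 kept 67.8% of higher sites (367 of 541) and 96.0% of lower sites (454 of 473). The counting intervals printed beside single folds show only how wide the reads leave each ratio. Lower sites draw their high reads from a pair of libraries that includes the deepest one, and the part of depth in this gap between directions was not tested. An exact permutation test of 2 against 2 libraries cannot give a p under 0.333, and none was run. In the authors' deposited table the p of the listed sites ran from 7.26e-08 to 9.98e-05, and the largest adjusted p was 0.0138. The Dlg2 site, with a p of 9.88e-05 in the authors' deposited table, was among the last that entered on the lower side. There the acute stress libraries had 5.7 and 1.43 normalised counts and the control libraries 16.22 and 16.43. On the higher side 4921509O07Rik shared the largest p with 2 sites outside genes, and had 13.31 and 18.58 after acute stress and 2.16 and 4.6 in controls. Sites outside the list are not analysed here, so nothing just beyond the threshold can be shown.

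In the low group an empty library was common. Of the higher sites 30 had 0 reads in a control library, and of the lower sites 98 had 0 reads in an acute stress library, while none had 0 in both libraries of a group. The low group held only 1 to 3 reads in all at 16 higher and 192 lower sites, so single folds there are wide. Atp8b4 (a phospholipid flippase) and Abca13 (a lipid transporter) show this upward. Abca13 (chr11:9625676-9625925) had 10.46 and 15.72 normalised counts after acute stress and 0 and 1.97 in controls, a pooled fold of 10.2 (3.08 to 53.5). Downward, Srgap1, a Slit-Robo GTPase activating protein (chr10:121911151-121911400), had 0 and 1.43 after acute stress and 11.9 and 12.48 in controls. That site rests on 1 acute stress read against 30 control reads, a control excess of 21.5-fold with an interval of 3.57 to 876.

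Sites stood mainly in gene bodies and between genes. Gene bodies held 43.6% of higher and 51.8% of lower sites (236 and 245), and promoters, which the authors' annotation splits by distance to the start, held 5.36% and 6.13% (29 each). Intergenic sequence outside gene deserts held 37.7% of higher and 26.2% of lower sites (204 and 124), so 62.2% of the sites in that class were higher. Gene deserts held 13.1% and 15.6% (71 and 74), and 1 site of each direction was subtelomeric. The size of the difference hardly varied with class. Median log2 differences at higher sites were 2.18 in gene bodies, 2.24 in promoters, 2.2 in other intergenic sequence and 2.26 in deserts. At lower sites they were -2.62, -2.74, -2.58 and -2.71 in the same order. The shares carry no test, and the part of the genome in each class was not computed, so they show no preference of the sites for a class.

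**Figure D2:**
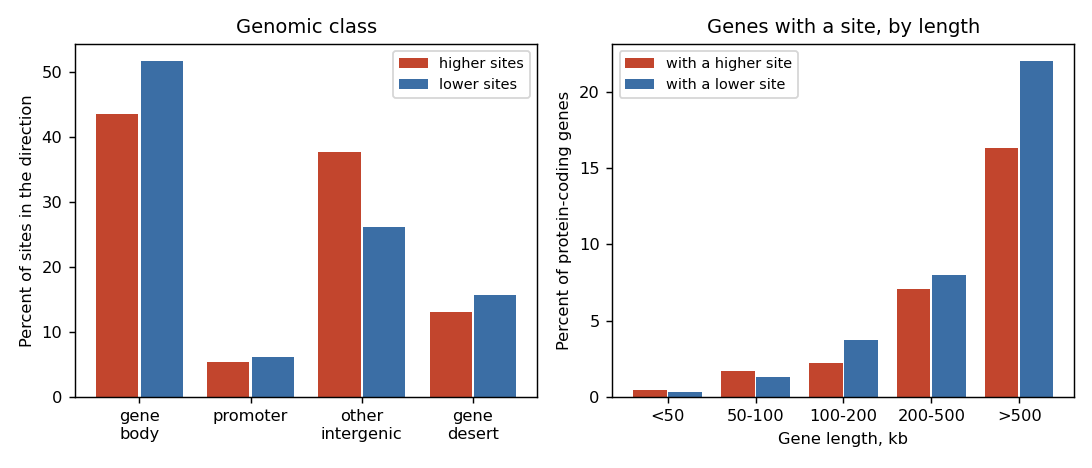
Left, percent of the 541 higher and 473 lower sites in each genomic class of the authors' annotation, leaving out 2 subtelomeric sites. Right, percent of protein-coding genes in each length class, in kb, that held a higher or a lower site, which climbs to 16.3% and 22.0% of genes over 500 kb.

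All 19 autosomes held sites of both directions and no listed site lay elsewhere. Higher sites were the majority on 11 autosomes, lower sites on 6, and the counts were equal on 2. Chromosome 15 leaned furthest, with 28 higher and 12 lower sites (70.0% higher). Chromosome 13 had 25 higher and 14 lower sites, and chromosome 14 had 30 and 17. At the other end chromosome 8 had 21 higher and 26 lower sites (44.7% higher). No chromosome was one-sided.

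Within genes, lower sites lay deeper than higher ones. Gene body sites had a median distance from the annotated start of 46.5 kb when higher and 68.9 kb when lower. Those at 100 kb or more made up 30.1% of higher and 41.2% of lower gene body sites (71 and 101), and those at 500 kb or more 3.39% and 7.35% (8 and 18). Sites within 10 kb of the start took nearly equal shares, 11.9% and 11.8%. The genes differed in length too, with medians of 114 kb for genes with higher and 164 kb for genes with lower gene body sites, and as a percent of gene length the median positions were 53.4% and 49.8%. Transcripts whose biotype the authors' annotation gives as misc hosted 19 higher and 11 lower gene body sites. None of these gaps was tested, since the list holds only selected sites.

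Promoter sites were few and close in level to the rest. The 29 higher ones had a median acute stress mean of 14.8 normalised counts and a median control mean of 3.15, and the 29 lower ones 2.14 and 14.5. Higher promoter sites lay before the annotated start in 11 cases and after it in 18, and lower ones in 14 and 15. The nearest classes held few: 1 higher and 2 lower sites were in the class closest to the start, and 6 and 9 in the next class out.

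Among higher promoter sites, Nppc encodes C-type natriuretic peptide, a ligand that signals through cyclic GMP. Its site, 2352 bp before the start (chr1:86672801-86673050), had 10.46 and 15.72 normalised counts after acute stress and 2.16 and 1.97 in controls. Supt4a, which encodes a subunit of the transcription elongation factor DSIF, had 18.06 and 14.29 after acute stress, against 2.16 and 3.94 in controls, at 2773 bp after the start. Both stress libraries were above both control libraries at these sites, with log2 differences of 2.66 and 2.41. Zmym6, a zinc finger gene, had 10.46 and 14.29 after acute stress and 3.24 and 1.31 in controls at 517 bp after the start. Klhl9, an adaptor of a Cullin-based ubiquitin ligase, had 19.01 and 21.44 after acute stress and 3.24 and 7.88 in controls. The bitter taste receptor gene Tas2r116 had 12.36 and 11.44 after acute stress against 1.08 and 2.63 in controls. Fam181a had 10.46 and 11.44 after acute stress, and its first control library was empty while the second had 2.63. Tlr5 and Nod2, innate immune receptors that sense bacterial products, also had higher promoter sites. At Tlr5 the values were 15.21 and 20.01 after acute stress and 2.16 and 5.91 in controls, and at Nod2 they were 14.26 and 20.01 after acute stress and 4.33 and 3.94 in controls. Tlr5 and Nod2 were picked out after their values were seen.

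Among lower promoter sites, Tph2 encodes the neuronal tryptophan hydroxylase, the rate-limiting enzyme of serotonin synthesis, which is made in raphe neurons rather than in the accumbens. At its site 1466 bp before the start (chr10:115186351-115186625) the acute stress libraries had 3.8 and 0 and the control libraries 16.22 and 13.14. Cacna1g, a T-type calcium channel subunit, had 1.9 and 1.43 after acute stress and 14.06 and 11.83 in controls at 452 bp before the start. Controls were high and acute stress libraries low at both of these, with log2 differences of -2.95 and -2.96. Txn1, the redox protein thioredoxin, had 1.9 and 0 after acute stress against 12.98 and 12.48 in controls, a control excess of 11.1-fold on 2 and 31 reads (2.82 to 95.7). Phc2, a subunit of Polycomb repressive complex 1, had 2.85 and 0 after acute stress and 15.14 and 11.83 in controls. The serine protease gene Prss33 had the widest spread between control libraries of the named promoter sites, with 3.8 and 1.43 after acute stress and 25.96 and 18.4 in controls.

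**Figure D3:**
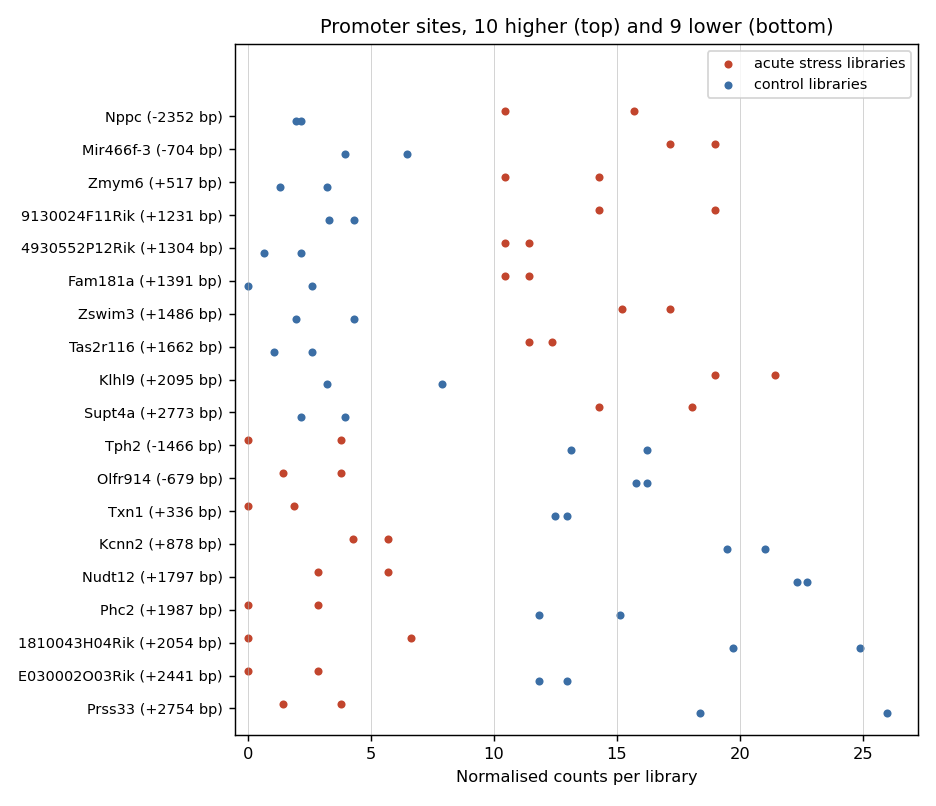
Normalised counts of the 2 acute stress and 2 control libraries at 10 higher (top) and 9 lower (bottom) promoter sites among those of smallest p in the authors' deposited table, with the distance of each site from its annotated start in bp. Acute stress points lie right of all control points in the upper rows and left of them in the lower rows.

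Odorant receptor genes contributed 5 promoter sites, 4 higher and 1 lower. RefSeq holds 1110 protein-coding genes of the family, of which 0.36% had a higher and 0.0901% a lower site, against 1.11% and 1.13% of all 21900 protein-coding genes. The 5 genes were short, 0.931 to 6.213 kb. Among all protein-coding genes under 50 kb the shares were 0.454% and 0.301%, nearer those of the family. These genes serve smell in the olfactory epithelium, and 4 of the 5 fell on chromosome 9 within 405.5 kb. Olfr902, Olfr913 and Olfr26 were higher. Olfr913 (chr9:38591051-38591375) had 15.21 and 14.29 normalised counts after acute stress and 5.41 and 1.97 in controls. Its close neighbour Olfr914 (chr9:38605626-38605950) went the other way, with 3.8 and 1.43 after acute stress and 16.22 and 15.77 in controls. So opposite directions stood side by side in the same receptor cluster. Odorant receptor genes are alike in sequence, and the sources used here do not give how reads with several matches were handled.

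Long genes held a site more often than short ones. Of 21900 protein-coding genes, 1.11% held a higher and 1.13% a lower site. Among genes under 50 kb the shares were 0.454% and 0.301%, and among genes over 500 kb 16.3% and 22.0%. For genes of 200 kb or more they were 9.19% and 11.2%. Per Mb of gene length the difference was far smaller, with 0.306 genes with a higher and 0.203 with a lower site among genes under 50 kb, and 0.192 and 0.259 among genes over 500 kb. The counts for the gene groups below are read against these shares. Of 542 genes on 21 lists, 54 held any site, 24 a higher and 34 a lower one. The axon guidance, glutamate receptor and synaptic adhesion lists had median gene lengths of 218, 319 and 651 kb.

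Synaptic adhesion genes, which join the membranes of partner neurons, held the most sites of any list, and theirs was also the largest list and the one of longest genes. Of 58, 6 had a higher site and 11 a lower one (10.3% and 19%). Of the 58, 40 were 200 kb or more, of which 6 and 9 had a higher and a lower site. Among all protein-coding genes the shares were 9.19% and 11.2% at 200 kb or more, and 16.3% and 22.0% over 500 kb. The higher ones were Cntnap2, Nrxn3, Ptprt, Ctnnd2, Dscaml1 and Pcdh15. Nrxn3 encodes neurexin 3, a presynaptic organiser, and its site 254 kb into the gene (chr12:89207676-89208050) had 17.11 and 20.01 normalised counts after acute stress and 7.57 and 3.94 in controls. Cntnap2, a neurexin relative that clusters potassium channels, had 10.46 and 12.86 after acute stress and 0 and 2.63 in controls. Ctnnd2, the delta-catenin of neuronal cadherin complexes, had 10.46 and 12.86 after acute stress and 3.24 and 1.31 in controls. In all 3 both acute stress libraries exceeded both control libraries, with log2 differences of 1.69, 3.15 and 2.36.

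The lower adhesion genes included latrophilins and teneurins, which bind each other across the synapse. Adgrl2, a latrophilin (chr3:148893401-148893675), had 1.9 and 4.29 normalised counts after acute stress and 12.98 and 15.11 in controls. Tenm2, a teneurin (chr11:36490326-36490575), had 0 and 4.29 after acute stress and 12.98 and 11.83 in controls, and Tenm4 had 4.75 and 0 after acute stress and 15.14 and 14.45 in controls. The receptor phosphatase Ptprd, a presynaptic organiser, had 2.85 and 0 after acute stress against 11.9 and 12.48 in controls, at a site 2045 kb from its start. Acute stress libraries were the low ones at all 4, and the lower library was empty at 3 of them. Cell adhesion molecules of the immunoglobulin type were also here. Cadm2 had 2.85 and 5.72 after acute stress and 19.47 and 16.43 in controls, and Cadm1 had 2.85 and 4.29 after acute stress against 14.06 and 16.43 in controls. Ctnna2, the alpha-catenin of neurons that links cadherins to actin, had 4.75 and 1.43 after acute stress and 17.3 and 15.11 in controls. Lrrtm3, a postsynaptic neurexin ligand, had 1.9 and 1.43 after acute stress and 14.06 and 11.83 in controls. Over the 11 lower sites the median log2 difference was -2.53, against -2.64 at all lower sites, and over the 6 higher ones it was 2.40, against 2.2 at all higher sites.

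Glutamate receptor genes had sites of both directions in different members. Of 25 genes, 2 had a higher site and 3 a lower one (8% and 12%), and all of these were among the 16 of 200 kb or more. Among all protein-coding genes of that length the shares were 9.19% and 11.2%. Grin2b, the GluN2B subunit of NMDA receptors, held 2 higher sites within 320 kb of each other. The site at chr6:136158051-136158350, 15.3 kb from the start, had 13.31 and 14.29 normalised counts after acute stress and 2.16 and 3.29 in controls. The site at chr6:135837876-135838175, 335 kb in, had 17.11 and 15.72 after acute stress and 3.24 and 4.6 in controls. Both acute stress libraries were high at both, with pooled folds of 4.79 (2.0 to 13.2) and 4.05 (1.92 to 9.32). Grik4, a kainate receptor subunit, had 1.9 and 1.43 after acute stress and 16.22 and 13.8 in controls. Grm7, a presynaptic metabotropic receptor, had 2.85 and 0 after acute stress and 11.9 and 12.48 in controls. The lower sites of these genes had control excesses of 8.59-fold at Grik4 (2.71 to 43.6) and 7.16-fold at Grm7 (2.23 to 36.7).

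Axon guidance genes had 6 genes with a higher and 5 with a lower site of 42 (14.3% and 11.9%), with Dcc and Epha6 in both counts. Of the 42, 22 were 200 kb or more, of which 5 had a higher and 5 a lower site. Among all protein-coding genes of that length the shares were 9.19% and 11.2%. Ephrin receptors, contact-dependent kinases that steer axons and shape spines, were in the higher group, and Epha6 of that family also had 2 lower sites. Ephb1 (chr9:102224476-102224900) had 19.96 and 28.59 normalised counts after acute stress and 4.33 and 7.88 in controls, and Epha4 had 19.01 and 22.87 after acute stress and 5.41 and 6.57 in controls. Epha3 had 16.16 and 14.29 after acute stress and 6.49 and 2.63 in controls. Sema5a, a semaphorin, had 20.91 and 20.01 after acute stress, against 5.41 and 4.6 in controls. Both acute stress libraries were high at each. Of the lower ones, Sema3e, a secreted semaphorin, had 1.9 and 0 after acute stress and 11.9 and 11.83 in controls, which is the floor of the list in both control libraries. Slit3, a ligand of Robo receptors, had 0.95 and 4.29 after acute stress and 14.06 and 13.14 in controls.

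**Figure D4:**
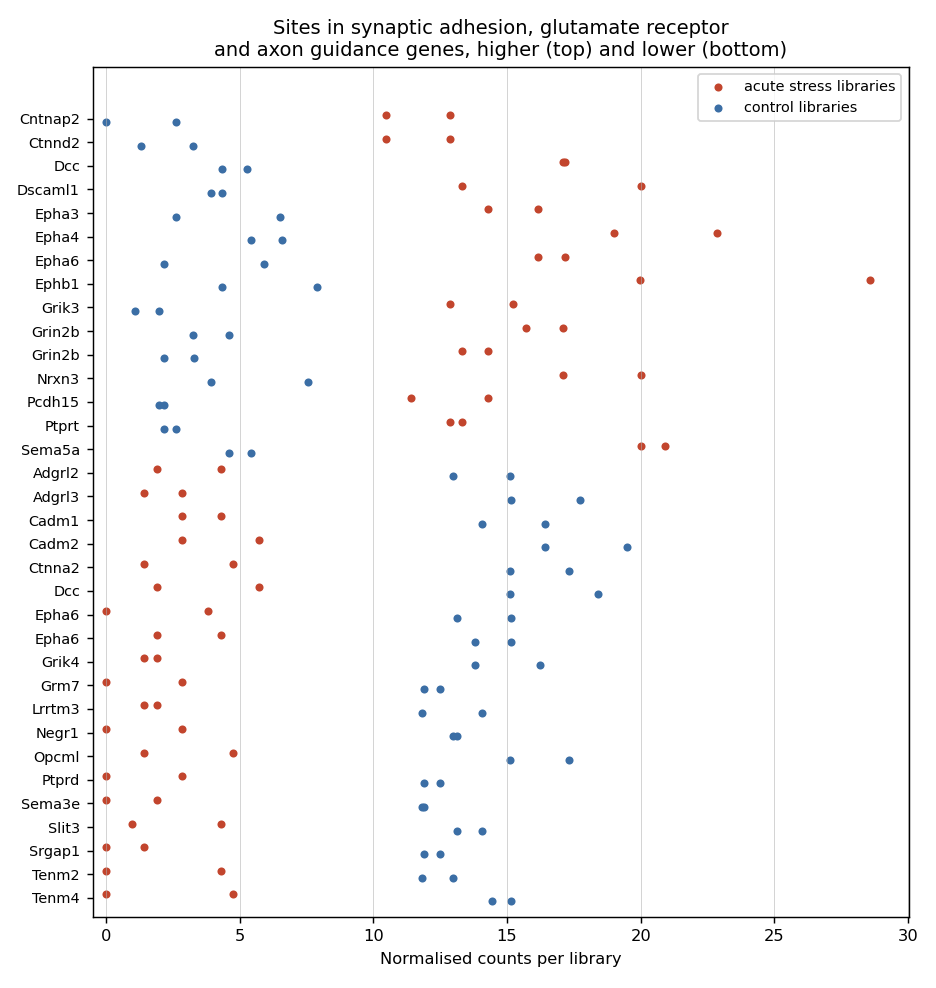
Normalised counts of the 2 acute stress and 2 control libraries at sites in synaptic adhesion, glutamate receptor and axon guidance genes, higher sites at the top and lower sites at the bottom. Acute stress points reach 28.59 at Ephb1, and the acute stress points of the lower rows stay at or under 5.72.

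Of 44 genes of voltage-gated and related channels, auxiliary subunits included, 4 had a higher site and 3 a lower one (9.09% and 6.82%), and 24 of the 44 were 200 kb or more. Cacna1e, the pore subunit of R-type calcium channels, had 19.01 and 14.29 normalised counts after acute stress and 6.49 and 2.63 in controls. Scn1a, the NaV1.1 sodium channel of fast-spiking interneurons, had 15.21 and 14.29 after acute stress and 5.41 and 1.97 in controls. Kcnip4, a cytosolic partner of Kv4 potassium channels, had 16.16 and 17.15 after acute stress and 5.41 and 3.29 in controls. The acute stress libraries were high in each, with log2 differences of 1.87, 2.0 and 1.94. Cacnb2, an auxiliary calcium channel subunit, was lower, with 1.9 and 1.43 after acute stress and 16.22 and 13.8 in controls. Kcnn2, the SK2 potassium channel, which is gated by calcium and not by voltage, had 5.7 and 4.29 after acute stress and 19.47 and 21.03 in controls.

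Of 36 growth factor and plasticity genes, 5 had a lower site and 1 a higher one (13.9% and 2.78%), beside 1.13% and 1.11% of all protein-coding genes. Of the 36, 11 were 200 kb or more, of which 2 had a lower and 1 a higher site. These counts are too small to read as a lean in direction. Mef2a, an activity-regulated transcription factor of neurons, had 2.85 and 0 normalised counts after acute stress and 15.14 and 14.45 in controls. Egfr, the epidermal growth factor receptor, had 0.95 and 4.29 after acute stress and 14.06 and 13.8 in controls. Fgf12, an intracellular partner of sodium channels, had 2.85 and 0 after acute stress and 12.98 and 11.83 in controls. Control libraries were high in all 3. Nrg3, a neuregulin that activates ErbB4, was the higher one, with 14.26 and 17.15 after acute stress and 2.16 and 5.26 in controls. Tiam1, a Rac activator of dendritic spines that is on none of the lists, was named by its small p and had 3.8 and 4.29 after acute stress against 20.55 and 19.71 in controls.

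Of 21 stress axis genes 1 had a higher site (4.76%) and 0 a lower one. It was Crhr1, the type 1 receptor of corticotropin-releasing hormone. The site lay 31.2 kb into the gene (chr11:104163951-104164250), with 11.41 and 15.72 normalised counts after acute stress and 2.16 and 3.29 in controls. That is a pooled fold of 4.59 (1.91 to 12.7) on 23 and 7 reads. Of 31 genes of medium spiny neuron identity and cAMP signalling, Pde4d and Rarb had sites of both directions and Foxp2 a lower one. These are 6.45% with a higher and 9.68% with a lower site, and all 3 are among the 13 genes of the list of 200 kb or more. Foxp2, a transcription factor of striatal projection neurons, had 3.8 and 0 after acute stress and 15.14 and 13.14 in controls. Of 40 presynaptic release genes only Synj1, the phosphatase synaptojanin 1 of vesicle recycling, had a site, at 16.16 and 21.44 after acute stress and 3.24 and 5.91 in controls. Of 26 postsynaptic scaffold genes Grip1, which anchors AMPA receptors, held 2 lower sites and Dlg2 held 1. The immediate early genes, GABA receptor genes, monoamine and peptide receptor genes and H3.3 with its chaperones held no listed site, nor did the housekeeping genes. These lists are made of short genes apart from the GABA receptor list, which had a median length of 143 kb.

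Chromatin regulators contributed only Btaf1 of 50 genes, with 3 lower sites. Btaf1 encodes an ATPase that strips TATA-binding protein from promoters. Besides its site of highest level in the list, it had a promoter site at 709 bp after the start (chr19:36926626-36926950) with 0.95 and 5.72 normalised counts after acute stress and 16.22 and 15.11 in controls. Another site, 44.2 kb in (chr19:36970151-36970500), had 10.46 and 4.29 after acute stress and 28.12 and 22.34 in controls. All control libraries were above all acute stress libraries at these positions. Among the other lower sites the highest control mean was at Dguok, a mitochondrial deoxyguanosine kinase, with 5.7 and 8.58 after acute stress and 34.61 and 24.97 in controls.

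Of 83 markers of other accumbens cell types, 1 had a higher and 1 a lower site, which is 1.2% each, beside 1.11% and 1.13% of all protein-coding genes. Fli1, an ETS factor on the microglial list, and Slc4a4, an astrocytic bicarbonate transporter, held the higher and the lower site. Slc4a4 had 1.9 and 0 normalised counts after acute stress and 11.9 and 11.83 in controls. None of the 12 interneuron, 13 oligodendrocyte, 11 oligodendrocyte precursor or 18 endothelial and mural markers held a site. These lists are mostly short genes, and H3.3 positions do not show which cells were sampled, so the labelled tissue could not be checked from them.

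Some long genes held sites of both directions, 11 of the 227 protein-coding genes over 500 kb (4.85%) and 5 of the 763 of 200 to 500 kb (0.655%). Of 502 genes with a site, 33 held 2 or more, 17 of them in both directions, 5 with higher and 11 with lower sites alone. The 17 genes were 197 to 1528 kb long, and the gap between the nearest sites of opposite direction had a median of 295.0 kb (0.825 to 964). In 15 of the 17 the sites shared an annotated transcript length, and among those the higher site was nearer the start in 11 and the lower site in 4. This split was not tested, and it counts pairs as close as that of Pde4d, at 990 and 991 kb from the start.

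**Figure D5:**
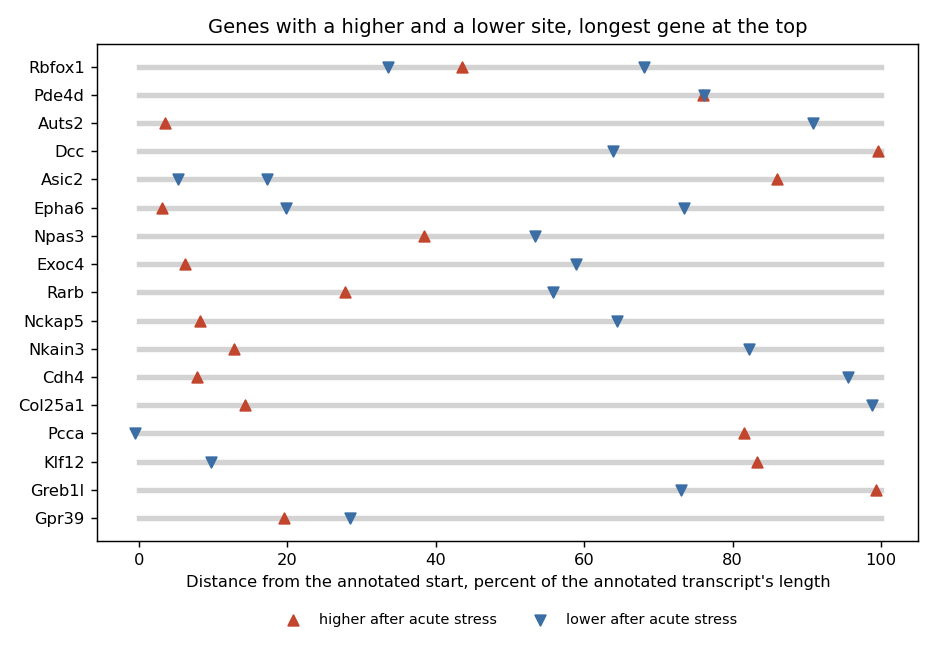
Positions of higher and lower sites in the 17 genes with both, as a percent of the length of the transcript to which the authors assigned each site (0 is the annotated start), from the longest gene at the top to the shortest. In Asic2 and Rbfox1 the sites were assigned to transcripts of different length.

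The closest pair of opposite sites was in Pde4d, which encodes a cyclic AMP phosphodiesterase, 825 bp apart and 990 kb from the start. The first (chr13:109644251-109644500) had 10.46 and 11.44 normalised counts after acute stress and 1.08 and 1.97 in controls. The second (chr13:109645326-109645575) had 0.95 and 1.43 after acute stress and 11.9 and 11.83 in controls. So both acute stress libraries were high at the first and low at the second, on 19 and 4 reads and on 2 and 29 reads for acute stress and controls. Rarb, a retinoic acid receptor of striatal neurons, had a higher site with 12.36 and 11.44 after acute stress and 3.24 and 1.31 in controls. Its lower site, 182 kb away, had 1.9 and 2.86 after acute stress and 12.98 and 14.45 in controls. Auts2, a neuronal gene linked to neurodevelopment, had a higher site near the start with 13.31 and 11.44 after acute stress and 0 and 3.29 in controls. Near its end it had a lower one, with 2.85 and 0 after acute stress and 11.9 and 11.83 in controls.

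Epha6, Asic2 and Rbfox1 had 3 sites each. In Epha6, an ephrin receptor, the higher site (chr16:60575976-60576300) had 16.16 and 17.15 normalised counts after acute stress and 2.16 and 5.91 in controls. Its lower sites had 1.9 and 4.29, and 3.8 and 0, after acute stress, against 15.14 and 13.8, and 15.14 and 13.14, in controls. In Asic2, an acid-sensing ion channel subunit, the higher site had 15.21 and 20.01 after acute stress and 3.24 and 5.91 in controls. Both its lower sites had control values at the floor of 11.9 and 11.83, with 1.9 and 1.43 after acute stress at 1 of them and 0.95 and 2.86 at the other. Rbfox1, a neuronal splicing factor, followed the same pattern of 1 higher and 2 lower sites. Its higher site had 17.11 and 12.86 after acute stress and 6.49 and 2.63 in controls.

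Sites rarely neighboured each other. Only 4 pairs lay within 10 kb, and 3 of them had the same direction. Ank2, which encodes the membrane adaptor ankyrin-B, had 2 higher sites 6800 bp apart, with 17.11 and 14.29 normalised counts after acute stress and 2.16 and 5.26 in controls at the first. Neb, the giant muscle protein nebulin, had 2 lower sites 2650 bp apart, with 4.75 and 2.86 after acute stress and 18.39 and 15.11 in controls at the first. G2e3, a ubiquitin ligase gene, had 2 lower sites 7725 bp apart, at its promoter and in its body. At the body site it had 5.7 and 5.72 after acute stress and 23.79 and 20.37 in controls.

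Sites outside genes were named by the same rules. The smallest p of the authors' deposited table, 7.26e-08, belonged to a higher site outside genes at chr9:87865101-87865425. It had 16.16 and 15.72 normalised counts after acute stress and 1.08 and 1.97 in controls. At chr7:100282151-100282400 the values were 11.41 and 15.72 after acute stress and 1.08 and 1.31 in controls. Both acute stress libraries were high and tightly grouped at the first and further apart at the second. Of the lower ones, a gene desert site at chr8:99762001-99762300 had 0.95 and 1.43 after acute stress and 16.22 and 13.8 in controls. Another at chr5:50189951-50190325 had 2.85 and 4.29 after acute stress and 18.39 and 23.65 in controls. The highest mean among higher sites that lay outside genes was at chr6:90864826-90865275, where acute stress libraries had 25.67 and 25.73 and controls 5.41 and 11.17. The highest means on the lower side were inside genes, at Btaf1 and Dguok.

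Both enrichment ratios of the authors' deposited table were finite at only 137 of 541 higher and 134 of 473 lower sites. There they mostly ran in the same direction as the counts. At higher sites the acute stress ratio was the larger in 135 of 137 such sites. At lower sites the acute stress ratio was the smaller in 123 of 134 and the larger in 10. The ratios describe the same groups at sites that were chosen by those groups' counts, so the shared direction is no separate evidence. The median finite ratio in the authors' deposited table was 1.52 for acute stress and 0.195 for controls at higher sites, and 0.25 for acute stress and 0.94 for controls at lower sites. The sources used here do not give what the ratio is relative to, and many ratios were infinite, 41.0% for acute stress and 60.4% for controls at higher sites and 37.2% and 55.0% at lower sites. At higher sites infinite ratios were thus more common in controls, the group with the lower counts. The shared direction therefore cannot be extended to sites with an infinite ratio.

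Overlap with sites of the other comparison, chronically defeated susceptible mice exposed to an aggressor again, was small. Both comparisons used the same control libraries, so overlap in direction is no independent result. In all 48 acute sites overlapped a susceptible site by at least 1 bp, which is 4.73% of acute and 3.73% of susceptible sites, and the sites were lower in both comparisons each time. Of the 1286 susceptible sites 1255 were lower and 31 higher, and the 48 are 10.1% of acute lower and 3.82% of susceptible lower sites. At Pde4d, with identical coordinates, the acute stress libraries had 0.95 and 1.43 normalised counts and their controls 11.9 and 11.83, while the susceptible libraries had 1.63, 0.83 and 2.94 and their controls 10.09 and 9.61. At Itch, a ubiquitin ligase gene picked out after its values were seen, acute stress libraries had 1.9 and 1.43 and controls 12.98 and 12.48, while susceptible libraries had 1.63, 0.83 and 0 and controls 11.01 and 10.14. Each comparison was normalised separately. Over the 48 sites the median log2 difference from controls was -2.40 after acute stress and -2.29 in susceptible mice.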

How the data were processed

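Only the acute stress and control H3.3 ChIP libraries were compared, at the sites in the table that the authors deposited, and libraries are named by their position in a cell. That table gives 2 of the 3 labelled libraries per condition, and the sources used here do not say which. The submitters' processing notes name Bowtie2 2.2.0, SAMtools 0.1.19 and mm10. The file names give diffReps with windows of 250 bp, but not its version, test, normalisation or read filters, for which there is nothing in the sources used here.

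Per the file headers, the deposited count cells hold normalised counts per library and the average columns a group's mean coverage signal. The deposited enrichment columns hold a ratio, the fold change is a log2 value by the authors, and the p-value and adjusted p-value per site are the authors'.

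Group means, SDs and log2 ratios of means were computed from the normalised counts (Python 3.11.15, pandas 2.3.3, numpy 2.4.6, scipy 1.17.1, matplotlib 3.10.9). Values within each library were whole multiples of 1 step at 100% of sites (tolerance 0.011), which gave whole reads. Reads entered a two-sided exact binomial test given relative depth and Clopper-Pearson 95% intervals, tested on simulated data. No model across libraries was fitted, since unlisted sites are not in hand. Genes were matched to RefSeq (GRCm38.p6), 501 of 502, of which 22 by an older symbol, and promoter windows came from RefSeq. No genome was used here, so sequence of other sites was not examined.

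Named per direction were the 10 promoter, 12 gene body and 4 intergenic sites of smallest p, the 3 of largest mean, genes with 3 or more sites or both directions, list members, sites in both comparisons and the 5 best covered with an empty library. Sites at promoter windows, neighbouring pairs and odorant receptor genes were added. Members and lists were chosen with earlier results of these data known. Labels call the replicates biological. Alternatives were stricter thresholds, the counting test, 30 or more reads, an enrichment ratio of at least 1 with and without infinite ratios, each library left out, a pseudocount of 1, promoters within 1 kb and 50% reciprocal overlap. A few sites that meet the naming rule are not reported here, though they remain in the counts.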

Additional observations from a re-analysis of the deposited data

How the results depend on the processing

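With a listed p under 1e-05, 84 higher and 80 lower sites were left, and with an adjusted p under 0.01, 194 and 173. At p under 1e-05 the classes shifted: of higher sites 3.57% were in promoters, 33.3% in other intergenic sequence and 20.2% in gene deserts, and of lower sites 43.75% were in gene bodies and 23.75% in deserts. List genes with a site were then 3 higher and 8 lower. With promoters limited to 1 kb from the start, 7 higher and 11 lower sites counted. The exact counting test left 367 higher and 454 lower sites, 30 or more reads left 365 and 473, and an enrichment ratio of at least 1 left 460 and 358. Those counts hold 222 and 260 infinite ratios, and finite ratios of at least 1, an alternative chosen after seeing the data, left 238 and 98. Leaving out each library in turn, 541 to 541 higher and 473 to 473 lower sites kept a 2-fold difference. Since the groups' libraries do not overlap at any listed site, no direction could reverse without a library, so only sizes are informative. At the 183 named sites the smallest log2 differences without a library and with a pseudocount of 1 were 1.2 and 1.52 in size. Their values moved by more than the replicate spread at 9, 7, 1 and 0 sites without acute stress library 1, acute stress library 2, control library 1 and control library 2, and at 37 sites with the pseudocount. Beside the 875 values computed, 40 were not finite because the remaining library was empty. At 50% reciprocal overlap 46 of the 48 shared sites remained. No paired analysis was possible because the values per library carry no replicate number. With 2 libraries a group, low-group values rest on few reads, and the listing depends on the authors' threshold.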
